A study of Mus musculus with 6 samples.

Results

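Skeletal muscle releases proteins that act on other tissues, called myokines, and proteins that act on the vessels running between its own fibres. In all, 10 genes of this kind were followed in EDL, the extensor digitorum longus, which is a fast-twitch muscle of the hindlimb, of mice bred to lose Akt1 and Akt2 in muscle. They were the myokine genes Fndc5, Metrnl, Ostn, Il15, Gdf15 and Bdnf, and the angiogenic factor genes Vegfa, Vegfb, Apln and Fgf2. They were taken by gene symbol from the table of gene counts, and all 10 were found among its 24411 genes. The mAktDKO mice carried floxed alleles of Akt1 and Akt2 and the Mlc1f-Cre allele, in which Cre is expressed from the gene of the fast myosin light chain and recombines the floxed alleles in myofibres. The control floxed mice carried the floxed alleles without Cre. RNA sequencing covered 3 mice of each genotype, on the C57BL/6J background and at the age of 50 weeks, and the study notes that knockout was less complete in slow-twitch muscle.

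Myokines are made by the myofibre itself or by other cells of the muscle, and several are induced by exercise. FNDC5 is a membrane protein whose cleaved part is known as irisin, and its gene is known to be induced by the coactivator PGC-1alpha together with the nuclear receptor ERRalpha. VEGF-A binds VEGFR1 and VEGFR2 on endothelial cells and is the main signal for the growth of capillaries, its gene being induced by hypoxia through HIF-1 and by PGC-1alpha. VEGF-B binds VEGFR1 but not VEGFR2, and apelin acts on endothelial cells through its own receptor, APLNR. Akt lies downstream of the receptors for insulin and IGF-1 in the myofibre.

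Total counts were between 13738795 and 15445523 per mouse. The control mice carry the numbers 2 to 4 in the table. Levels are given as CPM, counts scaled to a common library total after adjustment of the totals with the TMM method, and 3 counts, taken as the floor, correspond to between 0.194 and 0.218 CPM of the unscaled totals. Akt2 was at 51.0 ± 1.82 CPM (SD, n = 3) in mAktDKO and 149 ± 20.3 CPM (SD, n = 3) in control mice, which gave a log2 fold change of -1.55 (standard error, SE, 0.11, edgeR adjusted p = 0.000923), and for Akt1, which was not called, it was -0.25 (edgeR adjusted p = 0.115), and -0.11 with library totals. Control mouse 2 stood apart from its group mates, with a median absolute log2 distance of 0.209 against 0.125 to 0.156 in the other mice. The summed level of 14 myofibre markers was between 237609 and 292322 CPM in mAktDKO mice and between 299181 and 324605 CPM in control mice, led by Ttn (titin) and Myh4 (the fast 2B myosin heavy chain), and every gene of this list and of the other marker lists in the table had counts in at least 1 mouse.

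Of the 10 genes, 9 had enough counts to be tested, and 0 of them passed the adjusted p of 0.01 in edgeR's quasi-likelihood test. Over all 12892 genes tested the same threshold was passed by 3 genes, or 0.0233%. At an adjusted p of 0.05 the members called were again 0, against 1.18% of all genes. Before adjustment, Fndc5 and Bdnf had p under 0.05, or 2 of 9, with 24.5% of all genes below that value. Both were also the 2 members whose groups did not overlap, Fndc5 with every mAktDKO mouse below every control mouse and Bdnf with every mAktDKO mouse above. Groups did not overlap for 31.1% of all genes, so neither count stood above the background. Which members had p under 0.05 in edgeR depended on single mice. Without mAktDKO mouse 2 they were Fndc5 and Ostn, both lower, with 8.10% of all genes lower and 6.31% higher in that fit. Without control mouse 3 they were Fndc5, lower, and Apln, higher (11.9% and 11.5% of all genes). With the Wald test of DESeq2, the tool that the study's methods name, in which 3.55% of the genes with an adjusted p were called, Fndc5 was called (log2 fold change -0.62, adjusted p = 0.00368), Ostn, Metrnl, Apln, Vegfa and Vegfb were not, and Bdnf, Il15, Fgf2 and Gdf15 were given no adjusted p, while limma-voom called 0 of the members. The median log2 fold change of the 9 tested members was -0.07, and that of all genes 0.02. In whole muscle, fewer cells of a type and less RNA per cell cannot be told apart, which holds for each level given here.

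**Figure D1:**
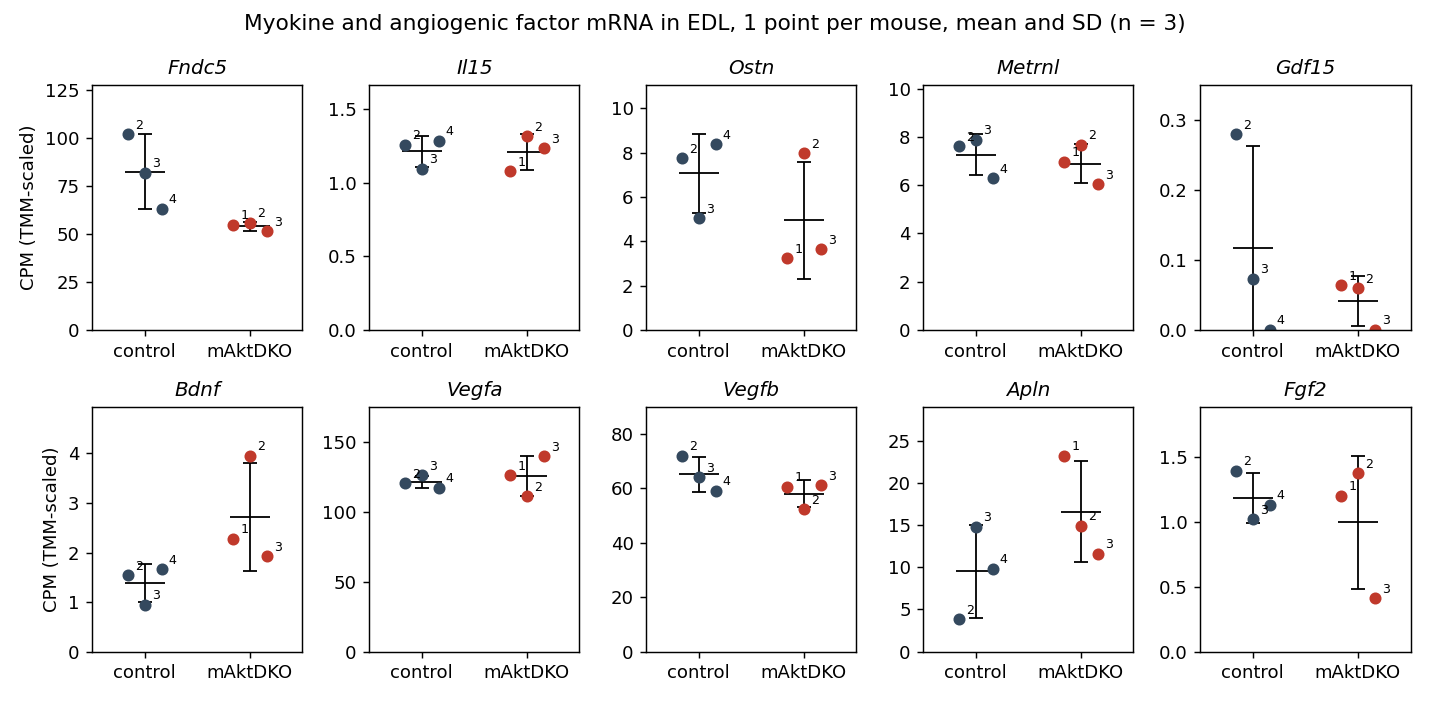
Level of each of the 10 genes in CPM on axes that start at 0, with 1 point per mouse (number of the mouse beside it) and the mean and SD of the 3 mice per genotype as a bar. Fndc5, at 51.3 to 55.9 CPM in mAktDKO mice and 63.2 to 102 CPM in control mice, and Bdnf are the panels in which the genotypes do not overlap.

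**Figure D2:**
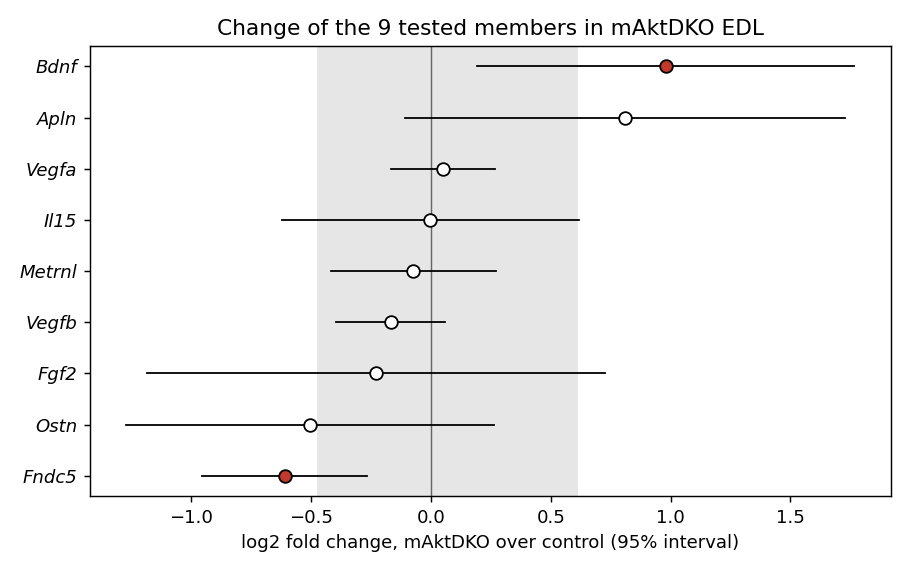
Log2 fold change of the 9 tested genes, mAktDKO over control, with its 95% interval from edgeR. Filled points mark genes whose groups do not overlap, and the grey band holds the changes of all genes between the 5th and 95th percentile, from -0.47 to 0.61. The intervals of Fndc5 and Bdnf leave out 0.

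Fndc5 was measured at 54.8, 55.9 and 51.3 CPM in mAktDKO mice 1 to 3 and at 102, 81.9 and 63.2 CPM in control mice 2 to 4. The mAktDKO mice lay close together, with a coefficient of variation of 4.46%, and the control mice were spread over a wide range, with 23.6%. The means were 54.0 ± 2.41 and 82.4 ± 19.4 CPM (SD, n = 3 each). The log2 fold change was -0.61 (SE 0.15, 95% interval -0.95 to -0.27, edgeR adjusted p = 0.0702). Of all tested genes, 2.26% had a lower fold change, and for Ostn, whose groups overlapped, this share was 4.13%. The highest value, that of control mouse 2, carried part of the difference. Without that mouse the log2 fold change was -0.43 (edgeR adjusted p = 0.0883), and without control mouse 4 it was -0.77 (adjusted p = 0.0353). The gene, on the plus strand of chromosome 4 of GRCm38 (mm10) from 129136870 to 129144593, is a transcript of the myofibre, so its level was also set against the mean log2 CPM of the myofibre markers in the same mouse. On that scale the mAktDKO mice were 0.19 lower and the groups overlapped (exact permutation test, two-sided p = 0.4, where 0.1 is the smallest that 3 mice against 3 allow). With Ckm, Acta1 and Mylpf as the reference, the difference was -0.39 (p = 0.2 by the same exact test).

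Bdnf, the gene of brain-derived neurotrophic factor, was measured at 2.28, 3.95 and 1.92 CPM in the mAktDKO mice, against 1.54, 0.948 and 1.66 CPM in the controls. These values rest on 36, 66 and 28 counts and on 22, 13 and 22 counts. The lowest mAktDKO mouse, number 3, and the highest control mouse, number 4, had counting intervals that overlapped (18.6 to 40.5 and 13.8 to 33.3 counts, exact Poisson 95%, for counting error only). The means were 2.72 ± 1.08 and 1.38 ± 0.382 CPM (SD, n = 3 each). The log2 fold change was 0.98 (SE 0.35, 95% interval 0.19 to 1.77, edgeR adjusted p = 0.140). This was a higher fold change than that of 98.8% of the tested genes, and that of Apln, whose groups overlapped, was higher than 97.8%. These ranks take no account of the spread between mice. Bdnf lies on the plus strand of chromosome 2 from 109674700 to 109727043. Mouse 2 of the mAktDKO group was far above its group mates, and without it the log2 fold change was 0.60 (edgeR adjusted p = 0.435). That mouse also had the highest summed level of the adipocyte markers (165 CPM, against 139 and 55.2 in mAktDKO mice 1 and 3 and 41.9 to 92.2 in control mice), led by Cfd and Plin1, and of the slow fibre markers (1317 CPM, against 680 to 1124 in the others of its group and 607 to 884 in control mice), led by Myh7 and Atp2a2. The denervation markers, led by Hdac4 and Ncam1, summed to between 130 and 152 CPM and between 110 and 120 CPM. The part of these lists in the Bdnf level was not tested.

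Bdnf has several start sites, and the sequence before the outermost of them is shown because it holds 2 copies of ACGTG, a form of the core bound by HIF-1, among the members whose groups did not overlap. The other form, GCGTG, was not searched. The Bdnf sequence is given with the only stretch of Fndc5's window that holds ACGTG. Bases are 5′ to 3′ on the plus strand of GRCm38.p6 from RefSeq, in lower case, with the core (ACGTG or, on the other strand, CACGT) in capitals.
Bdnf, chr2:109674450-109674699, upstream of the gene: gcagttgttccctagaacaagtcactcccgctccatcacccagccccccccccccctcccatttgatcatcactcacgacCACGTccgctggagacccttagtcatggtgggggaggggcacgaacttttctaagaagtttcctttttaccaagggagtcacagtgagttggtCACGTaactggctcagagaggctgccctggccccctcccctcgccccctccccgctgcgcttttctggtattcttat
Fndc5, chr4:129136883-129136912, inside RefSeq's span of Fndc5 and over an exon of Gm15906 in GENCODE: cccaggcgcccgACGTGgacgcggccgctg
RefSeq windows of 250 bases before a start were found for 8 of the 10 genes, 16 windows in all with 7 of them for Bdnf. The form ACGTG of the HIF-1 core occurred in 5 of these 16 windows and in 16.6% of all 32851 windows. In Bdnf's outermost window it began 170 and 77 bases before the start, and in that of Fndc5 104 bases before it. The core bound by ERRalpha, AAGGTCA, occurred in 0 of the 16 windows and in 4.08% of all, and that of the FoxO factors, GTAAACA, in 0 and in 3.17%, both searched on both strands. These letters mark matches and not bound sites.

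Ostn, the gene of musclin, a peptide related to the natriuretic peptides, was at 3.23, 7.97 and 3.63 CPM in the mAktDKO mice, against 7.76, 5.03 and 8.39 CPM in the controls. Mice 1 and 3 of the mAktDKO group were below every control mouse and mouse 2 was above 2 of them. The log2 fold change was -0.50 (SE 0.34, 95% interval -1.27 to 0.26, edgeR adjusted p = 0.378). It was -1.04 without mAktDKO mouse 2 (adjusted p = 0.231) and -0.27 without mAktDKO mouse 1 (adjusted p = 0.689, both from edgeR), so that the size of the difference rested on single mice. The gene lies on the plus strand of chromosome 16 from 27307641 to 27351209.

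Metrnl, the gene of meteorin-like, a protein secreted by muscle and fat, was at 6.97, 7.67 and 6.03 CPM in the mAktDKO mice, against 7.62, 7.88 and 6.28 CPM in the controls. The groups overlapped almost fully, with a log2 fold change of -0.07 (95% interval -0.42 to 0.27, edgeR adjusted p = 0.791). The sign was lost with library totals (0.070) and without mAktDKO mouse 3. Metrnl lies on the plus strand of chromosome 11 from 121702427 to 121717389. Its relative Metrn (meteorin) was lower in every mAktDKO mouse, with means of 11.7 ± 2.92 and 20.2 ± 2.37 CPM (SD, 3 mice each) and a lowest control value of 17.8 CPM (log2 fold change -0.79, edgeR adjusted p = 0.0573). The difference between the fold changes of these 2 genes was not tested.

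Il15, the gene of interleukin-15, was at 1.08, 1.32 and 1.23 CPM in the mAktDKO mice, against 1.26, 1.09 and 1.29 CPM in the controls. It had 15 to 22 counts per mouse, and the log2 fold change was -0.0022 (95% interval -0.62 to 0.62, edgeR adjusted p = 0.999). A difference inside that interval was not detectable at this depth, and the sign changed between settings. Il15 lies on the minus strand of chromosome 8 from 82331624 to 82403252. Its receptor chain Il15ra, named after its values were seen, had a log2 change of 0.05 (edgeR adjusted p = 0.888), with a sign that turned without mAktDKO mouse 3 and without control mouse 2.

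Gdf15, the gene of a stress-induced cytokine that acts through GFRAL in the hindbrain, was at or below the floor of 3 counts in 5 of 6 mice, control mouse 2 being above it. It had 1, 1 and 0 counts in the mAktDKO mice and 4, 1 and 0 counts in the control mice. The sums of 2 counts (0.242 to 7.22, exact Poisson 95%) and 5 counts (1.62 to 11.7) had overlapping intervals, and no fold change is given for it (exact permutation test of CPM, two-sided p = 0.5). The gene lies on the minus strand of chromosome 8 from 70629393 to 70632470. The integrated stress response, which is known to induce Gdf15, was followed by 15 genes. Of these, 4 had p under 0.05 before adjustment, 3 with a higher and 1 with a lower mean. The share of all genes was 24.5%, with 11.4% higher and 13.1% lower. Without control mouse 4 there were 5 higher and 1 lower (12.7% and 13.4% of all genes). Without mAktDKO mouse 3 there were 2 higher and 2 lower (9.29% and 12.1%). At an adjusted p of 0.01, 0 were called by edgeR, limma-voom or DESeq2. DESeq2 gave an adjusted p to 11 of them and none to Psat1 and Asns. The 4 with the smallest p were Psat1 (log2 fold change 1.14, edgeR adjusted p = 0.0466), a serine synthesis enzyme, Asns (0.73), asparagine synthetase, Ddit3 (-0.76), the transcription factor CHOP, and Slc7a11 (1.49), the cystine transporter.

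Vegfa had the most counts of the 10 genes, between 1552 and 2041 per mouse. Its level was 126, 111 and 140 CPM in the mAktDKO mice, against 121, 126 and 117 CPM in the controls. The control mice lay inside the range of the mAktDKO mice. The means were 126 ± 14.4 and 121 ± 4.52 CPM (SD, n = 3 each), with a log2 fold change of 0.05 (SE 0.096, 95% interval -0.17 to 0.27, edgeR adjusted p = 0.772). The direction depended on mAktDKO mouse 3, without which the log2 fold change was -0.04. The gene lies on the minus strand of chromosome 17 from 46016993 to 46032377.

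Vegfb, the ligand of VEGFR1, was at 60.6, 52.3 and 61.1 CPM in the mAktDKO mice, against 72.0, 64.2 and 59.2 CPM in the controls. The ranges overlapped through control mouse 4, and the log2 fold change was -0.17 (SE 0.10, 95% interval -0.40 to 0.06, edgeR adjusted p = 0.321). It was -0.090 without control mouse 2, -0.099 without mAktDKO mouse 2 and -0.031 with library totals. Vegfb lies on the minus strand of chromosome 19 from 6982472 to 6987651. The ratio of Vegfa to Vegfb counts in the same mouse does not depend on the scaling of the libraries. It was 2.08, 2.13 and 2.29 in the mAktDKO mice and 1.67, 1.97 and 1.98 in the control mice, so that the groups did not overlap. The log2 ratio was 0.21 higher in mAktDKO mice, with an exact permutation p of 0.1, two-sided, the smallest that this design can give. Leaving out each mouse in turn, this difference was between 0.13 and 0.25. Set against the myofibre markers of the same mouse, both ligands were higher in each mAktDKO mouse than in every control mouse, Vegfa by 0.44 and Vegfb by 0.22 on the log2 scale (exact permutation test, two-sided p = 0.1 for each). With Ckm, Acta1 and Mylpf as the reference these differences were 0.24 (p = 0.1) and 0.03 (p = 0.8, both by the exact test). Against the full marker list the groups did not overlap for 4 of the 9 tested members, the other two being Il15 and Bdnf, and for 59.0% of all genes, so that this count was below the background. Such a ratio shows only that a gene and the myofibre genes differed unequally.

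Apln, the gene of apelin, had the highest coefficient of variation of the tested members in the control group, 57.8%. It was at 23.2, 14.9 and 11.6 CPM in the mAktDKO mice, against 3.85, 14.8 and 9.83 CPM in the controls. The groups overlapped, since control mouse 3 was above mAktDKO mouse 3, and control mouse 2 was the lowest of all. The log2 fold change was 0.81 (SE 0.41, 95% interval -0.11 to 1.73, edgeR adjusted p = 0.250). It was 0.43 without control mouse 2 (adjusted p = 0.420), 0.49 without mAktDKO mouse 1 (adjusted p = 0.561) and 1.29 without control mouse 3 (adjusted p = 0.130), all from edgeR. The gene lies on the minus strand of the X chromosome from 48025146 to 48034853.

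Fgf2, the gene of basic fibroblast growth factor, was at 1.20, 1.38 and 0.411 CPM in the mAktDKO mice, against 1.40, 1.02 and 1.13 CPM in the controls. The low value of mAktDKO mouse 3 rested on 6 counts (2.20 to 13.1 counts, exact Poisson 95%). The log2 fold change was -0.23 (95% interval -1.19 to 0.73, edgeR adjusted p = 0.766) and turned to 0.11 without that mouse. Fgf2 lies on the plus strand of chromosome 3 from 37348477 to 37410106. Exons of Fgf2 overlap those of Nudt6 on the opposite strand, which was at 4.32 to 6.86 CPM, and the strand setting of the counting is not given in the sources used here, so the level of Fgf2 is uncertain. Fgf2 also overlaps Gm43439 on its own strand, and Bdnf and Ostn overlap Gm45346 and Gm32312 on the opposite strand. None of these Gm genes was counted, and their part in the levels of Fgf2, Bdnf and Ostn was not tested.

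**Figure D3:**
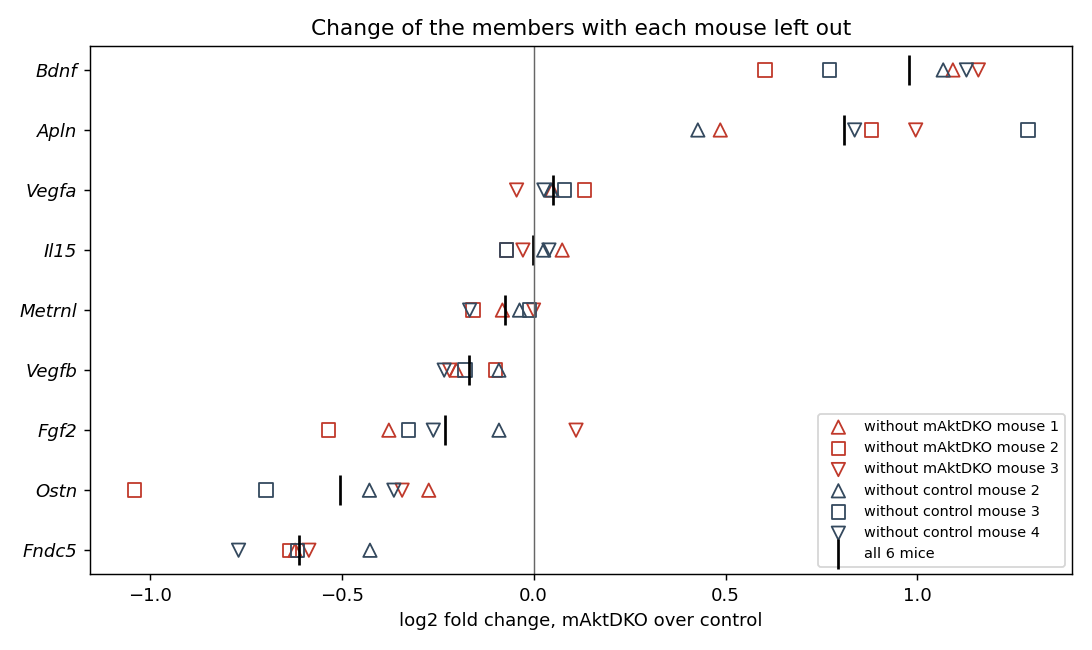
Log2 fold change of the 9 tested genes with all 6 mice (black bar) and with each mouse left out (open symbols). Fndc5, Ostn, Apln, Bdnf and Vegfb keep their sign in each of the 6 cases, Fndc5 from -0.77 to -0.43 and Apln from 0.43 to 1.29, and Vegfa, Il15, Metrnl and Fgf2 cross 0.

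Levels of different genes were compared per kilobase of exon. Over the 6 mice the order was Vegfb (48.1 CPM per kb), Vegfa (35.1), Fndc5 (24.7), Metrnl (4.70), Ostn (4.22), Apln (4.14), Il15 (0.576), Bdnf (0.330), Fgf2 (0.167) and Gdf15 (0.0428). The order of Metrnl, Ostn and Apln differed between the genotypes, with means of 4.58, 3.48 and 5.26 CPM per kb in mAktDKO mice and of 4.82, 4.96 and 3.02 CPM per kb in control mice. Vegfb was above Vegfa per length, in 6 of 6 mice, although Vegfa had more counts. Of the 9 pairs of neighbours in this order, 4 were ordered alike in 6 of 6 mice (exact paired permutation test over 6 mice, two-sided p = 0.0313, the smallest it can give, adjusted p = 0.0703). These were Vegfb over Vegfa, Fndc5 over Metrnl, Apln over Il15 and Fgf2 over Gdf15. Metrnl, Ostn and Apln did not differ beyond their spread (p = 0.531 and p = 1 by the same exact test), and Ostn was above Apln in 3 of 6 mice. The order of Vegfa and Fndc5 turned in control mouse 2, where Fndc5 was at 36.9 and Vegfa at 34.2 CPM per kb. With the length of the longest transcript, the order was the same.

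**Figure D4:**
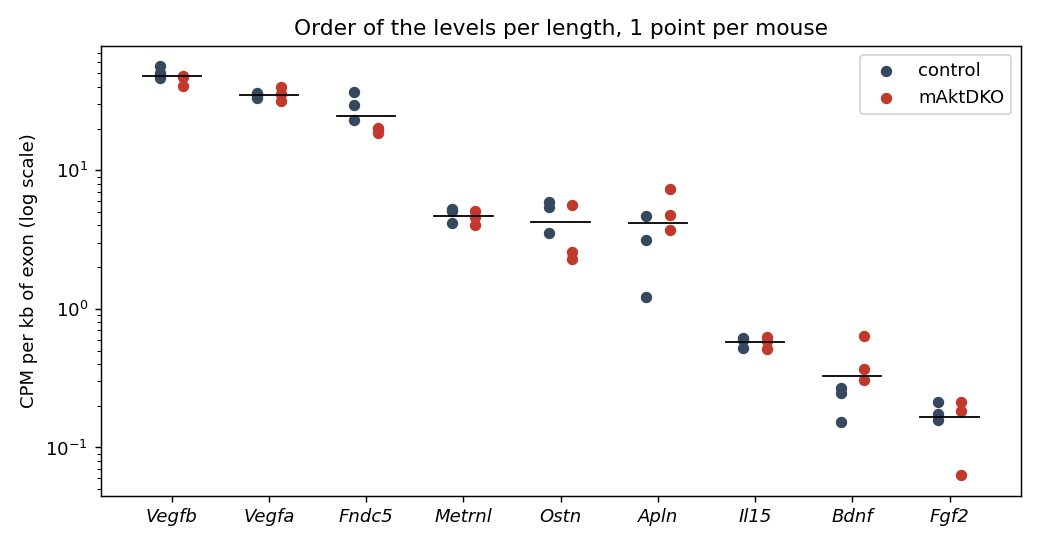
CPM per kilobase of exon on a log axis for 9 of the genes, with 1 point per mouse and a line at the mean of the 6 mice. Vegfb, Vegfa and Fndc5 lie between 18.6 and 56.2 CPM per kb, and Metrnl, Ostn and Apln between 1.22 and 7.37. Gdf15 is left out because 2 mice are at 0.

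The receptors and binding partners of the 10 proteins were 27 genes, of which 25 were tested. None was called at an adjusted p of 0.01 or 0.05 by edgeR, and 9 had p under 0.05 before adjustment, 7 of 25 with a higher mean in mAktDKO mice, against 11.4% of all genes, and 2 of 25 with a lower one, against 13.1%. With a mouse left out, the genes with p under 0.05 and a higher mean were 3 of 25 without mAktDKO mouse 2, against 6.31% of all genes in the same fit, 4 without mAktDKO mouse 1 (8.60%), 6 without mAktDKO mouse 3 (9.29%), 5 without control mouse 2 (9.18%), 5 without control mouse 3 (11.5%) and 6 without control mouse 4 (12.7%). Those with p under 0.05 and a lower mean were 2 of 25 without mAktDKO mouse 3 (12.1% of all genes) and without control mouse 3 (11.9%). They were 0 without each of the other mice, against 8.10% to 13.4% of all genes. The median log2 fold change of the list was 0.15. With the DESeq2 Wald test, Aplnr, Sort1 and Ntrk2 were called, or 3 of the 21 with an adjusted p, against 3.55% of all such genes, and with limma-voom 0 genes of the list.

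Aplnr, the receptor of apelin, was at 48.1, 35.2 and 29.8 CPM in the mAktDKO mice, against 14.1, 28.7 and 17.5 CPM in the controls. The groups did not overlap, and the log2 fold change was 0.91 (SE 0.26, 95% interval 0.33 to 1.49, edgeR adjusted p = 0.0904). The order of the mice within each genotype was the same as for Apln, and control mouse 2 was lowest for both. The count ratio of Apln to Aplnr was 0.482, 0.424 and 0.389 in the mAktDKO mice and 0.274, 0.517 and 0.560 in the control mice, so that the groups overlapped. The 12 endothelial markers, led by Ptprb and Cdh5, summed to between 681 and 751 CPM in the mAktDKO mice and between 551 and 708 CPM in the controls. Aplnr, which is not among these markers, was equal in size to 6.41%, 5.06% and 4.37% in the mAktDKO mice and 2.55%, 4.05% and 2.97% of that sum in the control mice (exact permutation test, two-sided p = 0.1, which is the lowest possible). The groups did not overlap on this scale either. Kdr, the gene of VEGFR2, had means of 11.8% in mAktDKO and 13.9% in control mice on the same scale. Its groups overlapped (exact permutation test, two-sided p = 0.5). The share of all genes whose groups do not overlap on this scale was not computed. Control mouse 2 also had the lowest sum of the fibro-adipogenic markers, led by Col1a1 and Col3a1 (6997 CPM, against 15388 to 21149 in the other mice), and of the macrophage and leukocyte markers, led by Mrc1 and Lyz2 (80.0 CPM, against 118 to 147). Without that mouse the log2 fold change of Aplnr was 0.70 (edgeR adjusted p = 0.146).

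The VEGF receptors, named after their values were seen, differed by less than the spread between mice. Kdr, which encodes VEGFR2, was at 90.4, 91.1 and 69.0 CPM in the mAktDKO mice, against 100.3, 85.6 and 67.1 CPM in the controls (log2 fold change -0.01, 95% interval -0.37 to 0.34, edgeR adjusted p = 0.966). Flt1, which encodes VEGFR1, was at 60.2, 65.4 and 71.4 CPM and at 74.6, 64.3 and 69.0 CPM (log2 fold change -0.08, 95% interval -0.29 to 0.13, edgeR adjusted p = 0.632). The sign of both turned with library totals, and that of Kdr also without mAktDKO mouse 3 and without control mouse 2. The mural cell markers, led by Abcc9 and Rgs5, summed to between 1177 and 1244 CPM in mAktDKO mice and between 1089 and 1199 CPM in control mice.

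The 4 receptors of BDNF in the list were set apart after the values were seen. Of these, 3 had p under 0.05 before adjustment with a higher mean in mAktDKO mice, against 11.4% of all genes. The receptors of VEGF (Kdr, Flt1, Flt4, Nrp1 and Nrp2) and of FGF2 (Fgfr1, Fgfr2, Fgfr3 and Fgfr4) did not have p under 0.05 in edgeR. Sorcs2, named after its values were seen, had a log2 change of 0.15 (edgeR adjusted p = 0.716). This change turned to -0.042 without control mouse 2 and was 0.50 without control mouse 4. Ntrk2, which encodes the receptor TrkB, was at 27.3, 33.6 and 22.4 CPM in the mAktDKO mice, against 13.6, 15.6 and 21.2 CPM in the controls (log2 fold change 0.73, standard error 0.19, edgeR adjusted p = 0.0752). Sort1, the sorting receptor sortilin, which binds proBDNF, was at 144, 153 and 158 CPM and at 113, 116 and 92.5 CPM (log2 fold change 0.50, standard error 0.10, edgeR adjusted p = 0.0520). For both genes every mAktDKO mouse was above every control mouse. Ngfr, the p75 receptor, named after its values were seen, was at 2.98, 3.35 and 1.44 CPM and at 1.47, 1.60 and 1.29 CPM, and its groups overlapped (log2 fold change 0.84, edgeR adjusted p = 0.170). Its p before adjustment was not under 0.05 with limma-voom, with DESeq2 or with a mouse left out, except without mAktDKO mouse 3. The receptors with p under 0.05 then numbered 2, or 3 without control mouse 4, where Sorcs2 was among them. Among the relatives of the ligands, Ntf5, the gene of the other TrkB ligand neurotrophin-4, was lower in each mAktDKO mouse, at 1.71, 1.44 and 2.26 CPM against 2.87, 3.50 and 3.40 CPM (log2 fold change -0.85, edgeR adjusted p = 0.0856).

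Npr3, the clearance receptor of the natriuretic peptides, to which musclin binds, was at 37.6, 55.7 and 35.2 CPM in the mAktDKO mice, against 32.7, 30.8 and 31.7 CPM in the controls. The groups did not overlap, and the log2 fold change was 0.43 (SE 0.16, edgeR adjusted p = 0.150). It was highest in mAktDKO mouse 2, which also had the highest Ostn level of its group, and without that mouse the log2 fold change of Npr3 was 0.20 (edgeR adjusted p = 0.386). The other genes of the list with p under 0.05, named after their values were seen, were Npr2 (log2 fold change -0.24), the receptor of C-type natriuretic peptide, Itgb5 (-0.27), a chain of an integrin reported to bind irisin, Ret (0.53), which signals with GFRAL, and Sdc1 (0.51), a heparan sulphate proteoglycan. Their adjusted p in edgeR lay between 0.175 and 0.200. Gfral itself, named after its values were seen, had 0 counts in each of the 6 mice and was not tested. Without control mouse 2 the log2 fold changes were -0.16 for Npr2, -0.16 for Itgb5, 0.26 for Ret and 0.29 for Sdc1, and without control mouse 4 that of Sdc1 was 0.79. With library totals they were -0.10 for Npr2 and -0.13 for Itgb5.

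**Figure D5:**
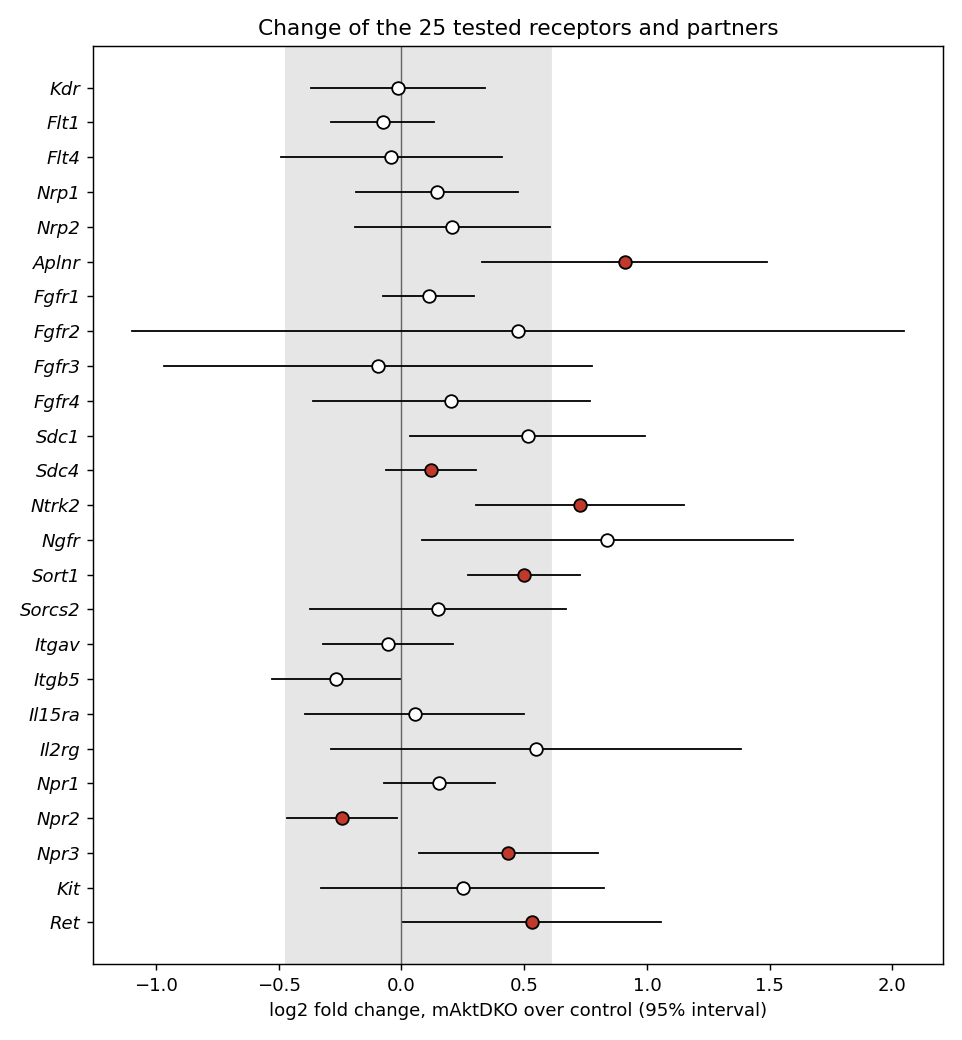
Log2 fold change of the 25 tested receptors and partners, mAktDKO over control, with the 95% interval from edgeR, ordered by ligand from VEGF at the top to GDF15 at the bottom. Filled points mark genes whose groups do not overlap and the grey band holds the changes of all genes between the 5th and 95th percentile. Aplnr, Ntrk2 and Sort1 lie to the right of 0, and the intervals of Kdr and Flt1 include 0.

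The next list held 20 genes of hypoxia and PGC-1alpha signalling, both regulators of Vegfa and Fndc5 and hypoxia-induced genes such as Ddit4. Of these, 2 had p under 0.05 with a higher mean in mAktDKO mice and 4 with a lower one. The shares of all genes were 11.4% and 13.1%. At an adjusted p of 0.01, edgeR and limma-voom called 0 genes of the list. The DESeq2 Wald test called 3 of the 17 with an adjusted p, Esrra, Egln2 and Ddit4, against 3.55% of all such genes. Esrra, which encodes ERRalpha, was at 53.1, 47.0 and 46.0 CPM in the mAktDKO mice, against 86.2, 72.6 and 68.7 CPM in the controls. Its groups lay well apart, with a log2 fold change of -0.64 (SE 0.11, edgeR adjusted p = 0.0396). Among the controls Esrra was highest in mouse 2 and lowest in mouse 4, an order also seen for Fndc5, Vegfb, Egln2 and Metrn. A link between Esrra and Fndc5 was not tested. Ppargc1b, the gene of PGC-1beta, was lower in every mAktDKO mouse (log2 fold change -0.43, edgeR adjusted p = 0.0598), and so was Egln2 (-0.53, adjusted p = 0.0539), a prolyl hydroxylase that marks HIF for degradation. Ppargc1a, the gene of PGC-1alpha, was at 82.0, 54.8 and 89.4 CPM in the mAktDKO mice, against 59.3, 68.1 and 64.0 CPM in the controls, with a log2 fold change of 0.24 (edgeR adjusted p = 0.382). Hif1a was at 53.4, 53.9 and 53.9 CPM and at 30.9, 43.4 and 46.7 CPM (log2 fold change 0.41, edgeR adjusted p = 0.125). Both were named after their values were seen. Without control mouse 2 the log2 fold change of Hif1a was 0.25, and that of Ppargc1a was between 0.088 (without mAktDKO mouse 3) and 0.43 (without mAktDKO mouse 2) and was 0.37 with library totals. Ddit4, a hypoxia-induced inhibitor of mTORC1 signalling, had a log2 change of -0.68 (edgeR adjusted p = 0.0908).

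Over all genes, 11.4% had p under 0.05 with a higher and 13.1% with a lower mean, or 24.5% in all, and the counts of the wider lists of secreted factors stand beside these shares. Of 24 other angiogenic and angiostatic factors, 6 had p under 0.05 with a higher and 1 with a lower mean, with a median log2 fold change of 0.19. The 4 with the smallest p were Cxcl12 (0.43), a chemokine of vessels and stroma, and Thbs1 (0.65), Adamts1 (0.40) and Serpinf1 (0.56), which are known as inhibitors of vessel growth. Their adjusted p in edgeR lay between 0.0506 and 0.0800. Of 29 other factors secreted by muscle, 8 had p under 0.05 with a higher and 1 with a lower mean, with a median log2 fold change of 0.32. Without control mouse 2, the genes with p under 0.05 were 4 higher and 1 lower of 24 angiogenic factors. Of 29 secreted factors they were 8 higher and 1 lower, and of the 20 hypoxia and PGC-1alpha genes 5 higher and 4 lower. The shares of all genes in that fit were 9.18% higher and 10.3% lower. Of the secreted factors, 5 were higher without mAktDKO mouse 2 (6.31% of all genes) and 11 without control mouse 4 (12.7%). The higher angiogenic factors in these fits were 4 and 8. Without control mouse 3, 1 of the hypoxia and PGC-1alpha genes was higher (11.5%). Markers of the stroma, of leukocytes and of fat had higher medians in mAktDKO mice as well. The log2 fold change was above 0 for 8 of 8 fibro-adipogenic markers (median 0.40), for 7 of 8 macrophage and leukocyte markers (median 0.43) and for 6 of 6 adipocyte markers (median 1.02). The summed levels overlapped between the groups, at 17750 to 21149 against 6997 to 18023 CPM, at 119 to 147 against 80.0 to 127 CPM and at 55.2 to 165 against 41.9 to 92.2 CPM, and their part in the levels of the secreted factors was not tested.

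Igf2, a growth factor of the insulin family, was at 208, 233 and 185 CPM in the mAktDKO mice, against 41.5, 92.9 and 92.1 CPM in the controls (log2 fold change 1.47, edgeR adjusted p = 0.0474), and it was called without control mouse 2 (log2 fold change 1.17, adjusted p = 0.00320). Cryab, a small heat shock protein, was at 208, 226 and 259 CPM and at 455, 335 and 349 CPM (log2 fold change -0.72, edgeR adjusted p = 0.0474). The next genes of that list were Dcn (0.57), a matrix proteoglycan, and Tgfb2 (0.33), a growth factor of the TGF-beta family. Of 14 tested relatives of the ligands, 2 had p under 0.05 with a higher and 2 with a lower mean, these being Fndc1 (0.67), Fgf6 (0.71, and 0.46 without mAktDKO mouse 3 and 0.49 without control mouse 4, where its p was not under 0.05), Metrn and Ntf5. The number of genes called at an adjusted p of 0.01 in each of these 3 lists was 0 by edgeR and by limma-voom, and by the DESeq2 Wald test, among the genes with an adjusted p, it was 3 of 20 angiogenic factors, 4 of 18 secreted factors and 2 of 4 relatives, against 3.55% of all such genes. The satellite cell markers, led by Chodl and Cdh15, summed to between 38.1 and 44.2 CPM in mAktDKO mice and between 41.4 and 47.6 CPM in control mice.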

How the data were processed

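For the 3 mAktDKO and 3 control EDL samples the authors depleted ribosomal RNA, made directional libraries, sequenced paired-end reads of 37 bp and mapped them to mm10 with STAR, and they deposited gene-level expected counts (estimated counts) from RSEM 1.3.1 without scaling between mice. Because the numbers of the control columns (2 to 4) differ from those of the control labels (1 to 3), each control column was used for its group only. Rounded counts were filtered with filterByExpr (minimum count 10), given TMM factors and analysed in edgeR 4.0.16 (quasi-likelihood test, Benjamini-Hochberg adjustment over 12892 genes, call at an adjusted p of 0.01, which the study applied in DESeq2 together with a q-value limit not used here) in R 4.3.3. Single values and ratios were compared by exact permutation, with a prior count of 2 for log2 CPM. Lengths are unions of exons of the basic GENCODE vM21 transcripts, and coordinates and promoters come from RefSeq GRCm38.p6. The named genes are all 10 members, Akt1 and Akt2, the 4 genes of smallest p of each list, and the 2 highest genes of each marker list, except 1 marker list whose result is not reported here. Kdr, Flt1, Flt4, Nrp1, Nrp2, Fgfr1, Fgfr2, Fgfr3, Fgfr4, Il15ra, Ngfr, Sorcs2, Npr2, Itgb5, Ret, Gfral, Sdc1, Ppargc1a and Hif1a were added after their values were seen. Ckm, Acta1 and Mylpf were added as a reference. Nudt6, Gm15906, Gm43439, Gm45346 and Gm32312 were added for their overlap with a member. Members and lists were chosen with earlier results of these data known. The steps were tested on simulated data. Alternatives were other scalings and filters, DESeq2 1.42.0, limma-voom (limma 3.58.1), counts not rounded, another threshold and leaving out each mouse.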

Additional observations from a re-analysis of the deposited data

How the results depend on the processing

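The number of genes called was 3 under library totals, upper-quartile factors, DESeq2 size factors, limma-voom, unrounded counts and a minimum of 10 counts in each mouse, 32 with no filter on low counts, 341 with the DESeq2 Wald test, 152 at an adjusted p of 0.05, and from 0 to 8 with a mouse left out, being 0 without any mAktDKO mouse. The number of members called was 1 with the DESeq2 Wald test (which gave 4 members no adjusted p) and 0 in the other settings. Library totals moved the median change over all genes (log2) by 0.14, so that 2969 genes were higher and 647 lower with p under 0.05 before adjustment, against 1471 and 1693 with TMM. The median of the members was then 0.070. Under library totals the log2 fold changes of Il15 (0.14), Metrnl (0.070), Kdr (0.13) and Flt1 (0.059) turned and that of Vegfa was 0.18. That of Il15 also turned with upper-quartile factors (0.0015) and with at least 10 counts in each mouse (0.0034), where Fgf2 could not be fitted. With a mouse left out, the range was -0.070 to 0.075 for Il15, -0.17 to 2.47e-06 for Metrnl, -0.044 to 0.13 for Vegfa, -0.53 to 0.11 for Fgf2, -0.15 to 0.13 for Kdr, -0.11 to 0.21 for Il15ra and -0.042 to 0.50 for Sorcs2. The CPM difference of Gdf15 was from -0.135 to 0.00463. Relative to the myofibre markers, Ostn was from -0.64 to 0.029 and Fgf2 from -0.28 to 0.54, and Fgf2 was -0.16 with the 3 reference genes. The cause of these turns was not tested. The log2 fold changes of Fndc5, Ostn, Apln, Vegfb and Bdnf kept their sign in each setting of the fit, while relative to the myofibre markers Vegfb (0.22), Metrnl (0.31), Il15 (0.37) and Fgf2 (0.031) had the opposite sign to the fit. The levels per length by longest transcript, the lists without each mouse and the overlap of groups under other scalings were chosen after seeing the data. No paired analysis was possible because numbers 2 to 4 of the controls in the table differ from those in the labels. The depth limits Gdf15, Il15, Fgf2 and Bdnf, which had at most 66 counts in a mouse.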
